A study of Mus musculus with 6 samples.

Results

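The 9 transcription factors Nkx2-1, Foxa1, Foxa2, Cebpa, Gata6, Elf5, Klf5, Foxp2 and Id2 of the alveolar epithelial lineage were examined on 6 arrays of sorted mouse lung cells. The 9 genes were taken by name from 18193 genes with a single symbol on an Affymetrix whole-genome 3' expression array, and 8 of them were among the 13335 genes bright enough to test. The adult samples were Lyz2+/EpCAM+ lung cells, named ATII (alveolar type II) cells in the design text, with 3 arrays. The E18 samples were Muc1+/Pdpn+ cells of lungs on day 18 of gestation, named bipotent progenitors (BP) in the design text, also with 3 arrays. Each array carried RNA of 1 sample described as a biological replicate. How Lyz2, which is not a surface protein, was detected, and the genotype, strain, sex, the age of the adults and any pooling of animals were not given in the sources used here, so the p-values measure the spread between these samples. Age and sorting markers differ together between the groups and cannot be told apart. Marker levels put these sort labels in doubt on several arrays, so adult and E18 stand here for the libraries labelled so. Values below are log2 signal, and differences are adult minus E18.

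These factors form the regulatory core of the distal lung epithelium. Nkx2-1, a homeodomain protein, sets lung epithelial identity and activates surfactant genes together with the forkhead proteins Foxa1 and Foxa2, which open compacted chromatin, and the zinc finger protein Gata6. Cebpa, a leucine zipper protein, and Klf5, a zinc finger protein, are needed for maturation of the alveolar epithelium before birth. Elf5, an ETS factor, Foxp2, a forkhead repressor, and Id2, a helix-loop-helix protein that lacks a DNA-binding region and blocks its partners, mark the growing distal tips of the fetal lung.

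No factor passed the test between the adult and E18 arrays. With replicates 1 and 2 set against replicate 3 as a block, Gata6 and Foxp2 passed as lower (limma adjusted p = 0.0489 and 0.0366). In that fit 5.21% of all genes were lower and 1.51% higher. Of all the factors 5, Foxa1, Foxa2, Gata6, Elf5 and Klf5, stood at far lower values on adult replicates 1 and 2 than on adult replicate 3. Foxp2 and Gata6 stood lower on every adult array than on any E18 array, as did 18.8% of all genes. Their mean differences were -2.46 and -2.65, and relative to epithelial genes the Foxp2 groups overlapped. Cebpa and Id2 differed by less than 1 log2 unit in the mean of the groups. The only probe set for Nkx2-1 was under the detection floor on 5 of the 6 arrays. General epithelial genes split the adult arrays the same way as the 5 factors, and that measurement stands beside each result it touches.

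Promoter sequences are shown for Foxa1, Foxa2 and Elf5, which have entries in the RefSeq promoter table of GRCm38.p6. They are among the factors that stood far lower on adult replicates 1 and 2 than on adult replicate 3. The windows run from 250 bases before to 50 bases after a start site. They were searched on both strands for motifs of the families these factors belong to. The forkhead motif was TGTTTAC. The motif of the NKX2 family was CAAGTG, and that of C/EBP proteins was TTGCNNAA. The motif of GATA factors was AGATAA. For ETS factors the letters searched were CCGGAAG. For KLF proteins they were GGGNGGGG. Capitals mark every match, overlapping matches joined, and a gene with several windows is shown by the one with matches to the most families. The Foxa1 window lies on the minus strand at chr12:57546062-57546361, that of Foxa2 on the minus strand at chr2:148045415-148045714, and that of Elf5 on the plus strand at chr2:103423818-103424117.
Foxa1: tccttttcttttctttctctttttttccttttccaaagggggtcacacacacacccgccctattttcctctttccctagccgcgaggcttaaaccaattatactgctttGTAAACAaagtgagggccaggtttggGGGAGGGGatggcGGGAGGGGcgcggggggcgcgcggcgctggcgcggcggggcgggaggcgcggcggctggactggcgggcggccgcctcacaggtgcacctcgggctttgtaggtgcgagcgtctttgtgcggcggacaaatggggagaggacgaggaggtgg
Foxa2: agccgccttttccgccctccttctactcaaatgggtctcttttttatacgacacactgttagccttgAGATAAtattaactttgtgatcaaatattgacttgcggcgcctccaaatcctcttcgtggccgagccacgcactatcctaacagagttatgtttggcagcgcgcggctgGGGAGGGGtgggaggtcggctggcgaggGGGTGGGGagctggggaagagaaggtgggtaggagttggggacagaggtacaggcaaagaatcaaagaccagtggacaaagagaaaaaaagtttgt
Elf5: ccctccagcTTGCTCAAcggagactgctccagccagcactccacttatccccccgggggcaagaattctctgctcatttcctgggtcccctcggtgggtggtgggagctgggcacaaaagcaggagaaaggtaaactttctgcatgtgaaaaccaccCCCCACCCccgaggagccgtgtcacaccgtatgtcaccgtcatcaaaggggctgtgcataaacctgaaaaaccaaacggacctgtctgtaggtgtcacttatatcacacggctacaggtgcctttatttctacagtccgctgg
The Foxa1 window held 1 forkhead match, 141 bases before the start site, and 2 KLF matches, 115 and 102 bases before it. The Foxa2 window held 1 GATA match at 183 bases and KLF matches at 74 and 46 bases before the start site. The Elf5 window held 1 C/EBP match at 241 bases and 1 KLF match at 93 bases before it, and the other Elf5 window also held 1 C/EBP match. Over 32851 promoter windows of the same length, 3.65% held the forkhead motif, 13.6% the NKX2, 10.8% the C/EBP, 11.2% the GATA, 8.86% the ETS and 33.2% the KLF motif. The other Foxa2 windows held 3 KLF matches in 1 case and none of the 6 motifs in the other. The windows of Cebpa and Id2 held 1 KLF match each, and that of Nkx2-1 held none of the 6 motifs. Gata6, Klf5 and Foxp2 had no window in this search. These matches describe letters in a window and not binding.

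Before the factors, the arrays were set against their labels. Lyz2, the lysozyme of the adult sort, stood at 11.44, 11.28 and 11.13 on adult replicates 1, 2 and 3, against 14.13, 14.04 and 14.27 on E18 replicates 1, 2 and 3. Epcam, the adhesion molecule of the same sort, stood at 7.85, 8.50 and 10.68 on the adult arrays, against 10.69, 11.31 and 9.26 on the E18 arrays. Lyz2 thus fell in the cells sorted for it (limma adjusted p = 0.00303), while the Epcam groups overlapped (-1.41, adjusted p = 0.359). Of the genes of the E18 sort, Pdpn, a type I cell surface protein, stood at 9.80, 9.38 and 9.88 on the adult arrays, against 11.65, 12.14 and 12.08 on the E18 arrays (adjusted p = 0.00924, not passed without E18 replicate 1, 0.0582, or 2, 0.0747). Muc1, a membrane mucin, stood at 7.92, 9.14 and 11.55 on the adult arrays, against 11.77, 11.94 and 11.10 on the E18 arrays (adjusted p = 0.206). Of 20 general epithelial genes, among them Cdh1, Krt8, Krt18 and Cldn7, 20 were tested and 20 were highest among the adult arrays on replicate 3. Their summed signal ran from 9056 to 88224 on the adult arrays and from 46636 to 54112 on the E18 arrays. Sftpc, which encodes surfactant protein C, was bright throughout, at 14.67, 14.50 and 14.52 on the adult arrays, against 14.05, 13.90 and 14.17 on the E18 arrays. The 14 type II cell markers tested had a median difference of -0.28, with 0 passing. Of 15 type I cell markers 10 fell and 0 rose, with a median of -2.99, where 4.57% of all genes fell and 1.41% rose. In the libraries labelled adult Lyz2+/EpCAM+, Lyz2 was well over the detection floors of 5.80, 5.40 and 6.05 but lower than on every E18 array. Epithelial signal was low on adult replicates 1 and 2, and which cells the adult libraries held is in doubt. Poly-A spike-in controls had a median signal of 20767 on adult replicate 3 and 15201 on E18 replicate 3, against 87.1 to 792 on the other arrays. Adult replicate 1 had a 3' to 5' signal ratio of 11.7 for beta-actin, against 1.353 to 1.553 on the other arrays, and 24.6 for Gapdh, against 4.70 to 6.18.

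Across all genes tested 5.98% passed, and 4.57% were lower and 1.41% higher in the adult arrays at an adjusted p under 0.05 in limma. Of the 8 factors tested, 0 were lower and 0 higher. At an unadjusted p under 0.05 in limma, 3 of the 8 passed in either direction, where 21.6% of all genes did. These were Gata6, Klf5 and Foxp2, all lower. The median difference was -1.95 over the 8 factors and -0.17 over all genes tested. Adult arrays lay wholly below E18 arrays for 2 of the 8, Gata6 and Foxp2, and 18.8% of all genes did so. Adult arrays lay wholly above for 0 of the 8, and 10.1% of all genes did so. The panel of values by array shows the 9 genes on a common scale.

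**Figure D1:**
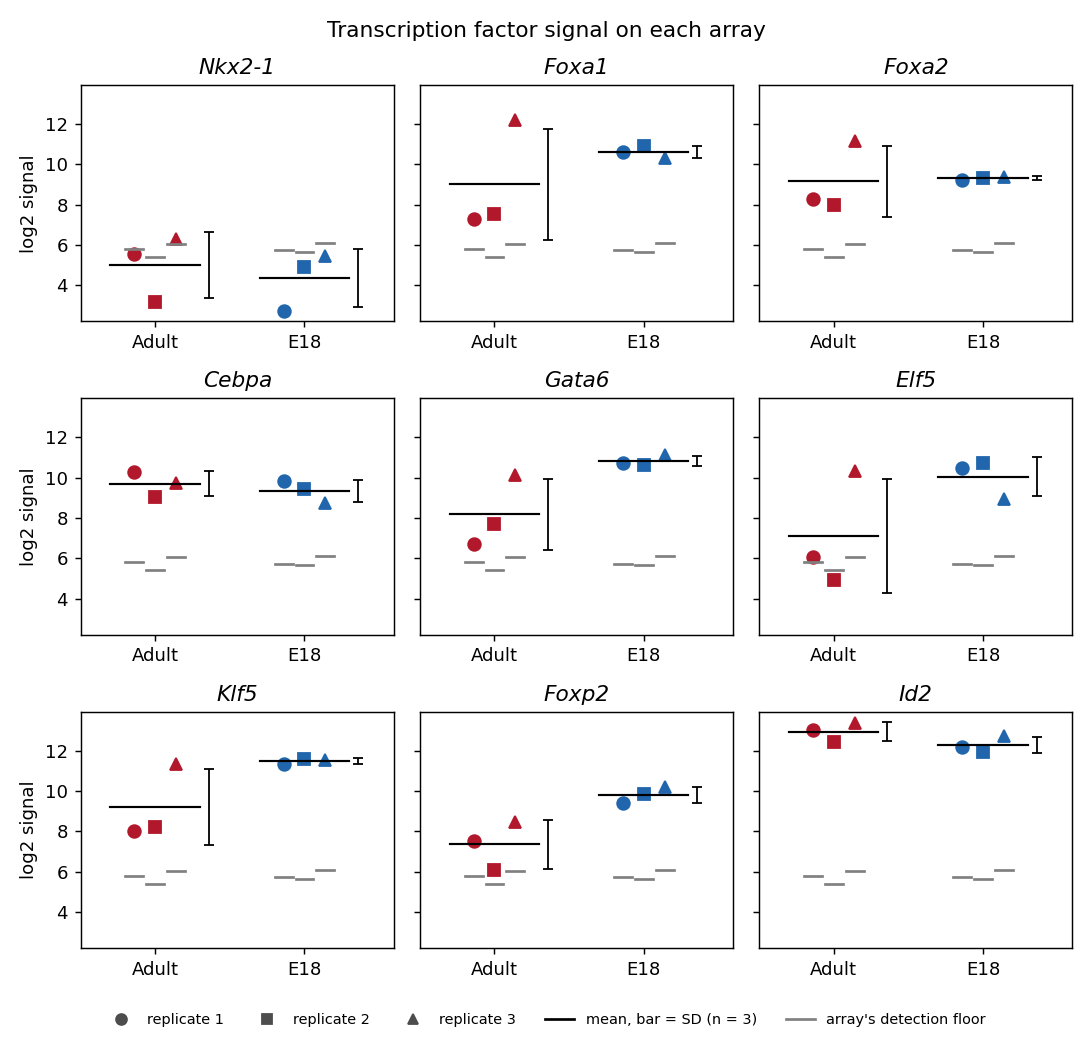
Log2 signal (vertical axes) of the 9 factors on the 3 adult arrays (red) and the 3 E18 arrays (blue), with mean, SD and each array's detection floor (grey dashes). The adult triangle, replicate 3, stands above the other adult arrays for Foxa1, Foxa2, Gata6, Elf5 and Klf5, while the E18 symbols lie close together for most genes.

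Among the factors that set lung identity, Nkx2-1 could not be measured with its 1 probe set. It stood at 5.58, 3.16 and 6.31 on adult replicates 1, 2 and 3, against 2.75, 4.94 and 5.44 on E18 replicates 1, 2 and 3. Only adult replicate 3 reached its detection floor, the 40th percentile of all probe sets on the array, which lay between 5.40 and 6.10. The gene lies at chr12:56531935-56536908. Its level could not be set for either population from this probe set. Without the filter on dim probe sets its difference was 0.64 with a standard error (SE) of 1.03 (limma adjusted p = 0.798).

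Foxa1 (chr12:57540628-57548029) reached both the highest and the lowest levels of its 6 values in the adult arrays. It stood at 7.29, 7.53 and 12.19 on the adult arrays, against 10.63, 10.89 and 10.31 on the E18 arrays. The first 2 adult arrays were below all E18 arrays and the third was above all of them. The mean was 9.003 ± 2.76 in the adult and 10.61 ± 0.29 in the E18 arrays (SD, n = 3), a difference of -1.61 (95% interval -4.39 to 1.17, limma adjusted p = 0.484). The adult SD of Foxa1 was exceeded by that of 1.12% of all genes tested. Foxa1 is found in airway as well as alveolar epithelium.

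Foxa2 (chr2:148042877-148046969), which overlaps Foxa1 in function, had the same shape with smaller steps. It stood at 8.28, 8.002 and 11.16 on the adult arrays, against 9.21, 9.34 and 9.39 on the E18 arrays. Again adult replicates 1 and 2 were below and replicate 3 above every E18 array. The means were 9.15 ± 1.75 in the adult and 9.32 ± 0.09 in the E18 arrays (SD, n = 3), and the difference was -0.17 (95% interval -1.99 to 1.65, limma adjusted p = 0.924). The adult mean lay between these low and high arrays.

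Gata6 (chr18:11052510-11085636), the zinc finger partner of Nkx2-1, had its lowest values on the adult arrays. It stood at 6.72, 7.68 and 10.13 on the adult arrays, against 10.74, 10.64 and 11.11 on the E18 arrays. The groups did not overlap, and adult replicate 3 lay closest to the E18 values. The means were 8.18 ± 1.76 in the adult and 10.83 ± 0.25 in the E18 arrays (SD, n = 3), a difference of -2.65 with SE 0.79 (limma unadjusted p = 0.0109, adjusted p = 0.103). With replicates 1 and 2 against 3 as a block its adjusted p was 0.0489, where 5.21% of all genes were lower and 1.51% higher. Its other probe sets differed in the same direction, by -1.57 (adjusted p = 0.326 over all probe sets tested) and -3.06 (adjusted p = 0.267), and both were under the floor on some adult arrays.

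Of the factors tied to maturation, Cebpa (chr7:35119293-35121928) had overlapping levels in the groups. It stood at 10.26, 9.03 and 9.76 on the adult arrays, against 9.84, 9.42 and 8.76 on the E18 arrays. Adult replicate 3 lay between the other adult arrays, whereas it was the highest adult array for the other 7 factors tested. The difference was 0.34, with a 95% interval from -0.67 to 1.36 (limma adjusted p = 0.695), so differences of these sizes are within the interval. Cebpa is also a factor of myeloid cells. Macrophage markers, 12 of 12 tested, summed to 50756 to 84027 on the adult arrays, against 31976 to 52984 on the E18 arrays. Their median difference went the other way, at -0.53, with 3 wholly below, 2 wholly above and 0 passing. Over all genes 18.8% lay wholly below and 10.1% wholly above. The part of macrophages in the Cebpa signal was not tested.

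Klf5 (chr14:99298691-99313412) was bright and tightly grouped at E18. It stood at 8.03, 8.21 and 11.35 on the adult arrays, against 11.34, 11.57 and 11.53 on the E18 arrays. Adult replicates 1 and 2 were more than 3 log2 units lower than any E18 array, and replicate 3 fell inside the E18 range. The means were 9.20 ± 1.87 in the adult and 11.48 ± 0.12 in the E18 arrays (SD, n = 3), a difference of -2.28 with SE 0.83 (limma unadjusted p = 0.0257, adjusted p = 0.164). A second probe set differed by -1.05 (adjusted p = 0.463 over all probe sets tested). The third, under the floor on all 6 arrays and not tested, differed by 2.38. The mean over the 3 probe sets, the dim one included, differed by -0.32 (adjusted p = 0.786).

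Elf5 (chr2:103412098-103450989), a factor of the distal tips, had the widest adult range of the 8. It stood at 6.06, 4.95 and 10.33 on the adult arrays, against 10.47, 10.73 and 8.93 on the E18 arrays. Adult replicate 2 was under its detection floor of 5.40 and adult replicate 1 just over its floor of 5.80. The means were 7.11 ± 2.84 in the adult and 10.04 ± 0.97 in the E18 arrays (SD, n = 3), a difference of -2.93 with SE 1.29 (limma adjusted p = 0.241). With the value under the floor set to it the difference was -2.78. The second Elf5 probe set was under the floor on all 6 arrays, and the mean over both differed by -1.69 (adjusted p = 0.398).

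Foxp2 (chr6:14901349-15441977), a repressor of the distal epithelium, came nearest to passing. It stood at 7.54, 6.07 and 8.45 on the adult arrays, against 9.40, 9.83 and 10.21 on the E18 arrays. All adult values were below all E18 values. The means were 7.35 ± 1.197 in the adult and 9.81 ± 0.40 in the E18 arrays (SD, n = 3), a difference of -2.46 with SE 0.60, or 5.50-fold (limma unadjusted p = 0.00398, adjusted p = 0.0585). It passed with arrays centred on their medians (-2.30, limma adjusted p = 0.0337), with probe sets averaged (-2.21, adjusted p = 0.0495) and with a constant of 32 added (-2.205, adjusted p = 0.0446). It also passed with replicates 1 and 2 against 3 as a block (adjusted p = 0.0366). It passed without adult replicate 3 (-3.01, adjusted p = 0.00745) and with the other 5 arrays left out in turn it had adjusted p-values of 0.112 to 0.211.

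Foxp2 had 6 probe sets, more than any other factor here, and all 6 had lower means in the adult arrays. One of them fell by 3.67 on the log2 scale with SE 0.58 (limma adjusted p = 0.0163 over 23674 probe sets, of which 3.51% were lower and 0.929% higher). This was probe set 1440108_at, at 6.49, 5.41 and 7.82 on the adult arrays, against 10.20, 10.51 and 10.04 on the E18 arrays. It was the 1 probe set of the 17 tested for these factors that passed. Probe set 1438232_at differed by -2.84 (adjusted p = 0.104), and 1422014_at by -3.14 (adjusted p = 0.198). Probe set 1458191_at differed by -0.61 (adjusted p = 0.556) and 1441365_at, which was not tested, by -0.55. Of the 3 adult arrays, 2 reached the floor for 1438232_at, 1 for 1422014_at, 1 for 1458191_at and 0 for 1441365_at. The sizes of these differences thus rest in part on values under the floor.

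Id2 (chr12:25093799-25096092) was the factor with the highest signal, with a mean level above that of 95.3% of the genes tested. It stood at 13.04, 12.44 and 13.34 on the adult arrays, against 12.20, 11.94 and 12.70 on the E18 arrays. The groups overlapped, with adult replicate 2 below E18 replicate 3. The difference was 0.66 (95% interval -0.14 to 1.46, limma adjusted p = 0.316), the other probe sets gave -0.11 and 0.19, and the mean over all 3 gave 0.25 (adjusted p = 0.76). Id2 is also made by natural killer cells and dendritic cells. Lymphocyte markers, 16 of 18 on the array and all of those tested, summed to 22137 to 103938 on the adult arrays, against 9448 to 17922 on the E18 arrays. Their median difference was 3.78, and 6 of the 16 were higher. Of 11 dendritic and myeloid markers tested 3 were higher, with a median of 1.67, where 1.41% of all genes were higher. That list summed to 42310 to 138579 on the adult arrays, against 24380 to 68005 on the E18 arrays. The part of these cells in the Id2 signal was not tested.

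**Figure D2:**
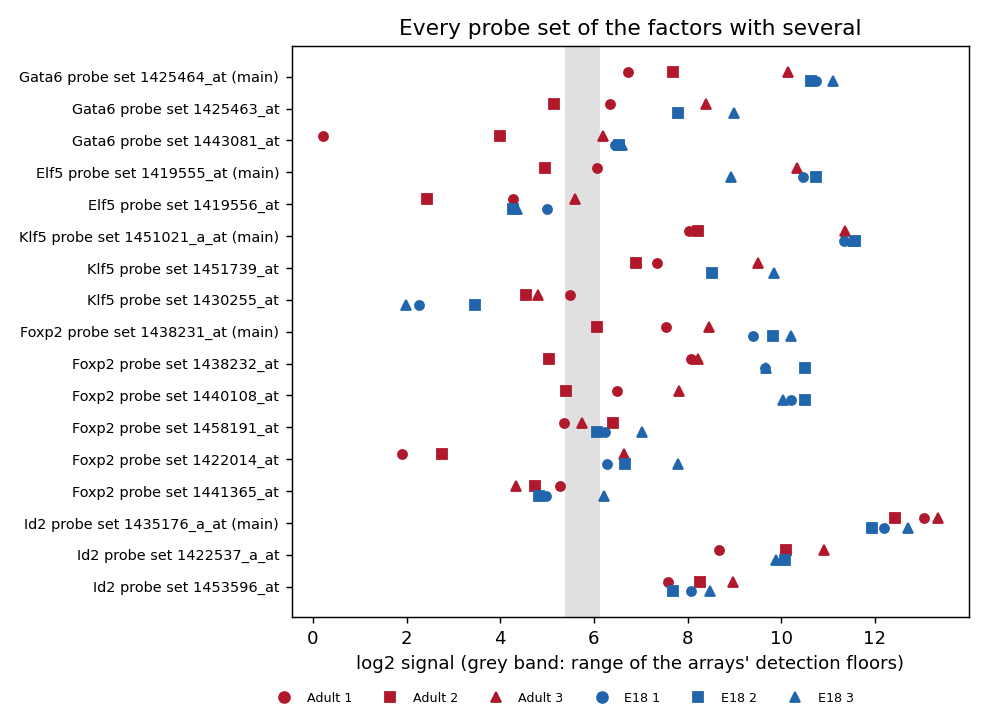
Log2 signal (horizontal axis) of every probe set of the 5 factors with more than 1, for adult arrays (red, upper symbol rows) and E18 arrays (blue, lower symbol rows). Red symbols lie left of blue ones for the brighter Foxp2 probe sets, while the Id2 probe sets overlap and 1 dim Klf5 probe set runs the other way.

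Replicates 1 and 2 and replicate 3 gave unlike answers for most factors. In replicates 1 and 2 alone, 6 of the 8 factors were lower in the adult arrays at an adjusted p under 0.05 and 0 were higher, where 16.5% of all genes were lower and 6.01% higher. The 6 were Elf5 (-5.10, limma adjusted p = 0.00508), Gata6 (-3.49, adjusted p = 0.00697), Foxa1 (-3.35, adjusted p = 0.00492), Klf5 (-3.34, adjusted p = 0.00492), Foxp2 (-2.81, adjusted p = 0.0255) and Foxa2 (-1.13, adjusted p = 0.0382). Of the 20 general epithelial genes 17 were lower in the same fit, with a median difference of -2.86. Between the third replicates, 1 adult against 1 E18 array with no test, the differences were 1.87 for Foxa1, 1.76 for Foxa2, 1.40 for Elf5, -0.18 for Klf5, -0.98 for Gata6 and -1.76 for Foxp2. Foxa1, Foxa2 and Elf5 thus ran in opposite directions between replicates 1 and 2 and replicate 3. Gata6, Klf5 and Foxp2 had negative differences in both, and Id2 differed by 0.67 and 0.64. The same 6 factors passed without adult replicate 3, where 15.5% of all genes were lower and 5.26% higher, and none of the 8 did without any other single array. Without adult replicate 3, 19 of the 20 general epithelial genes were lower.

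**Figure D3:**
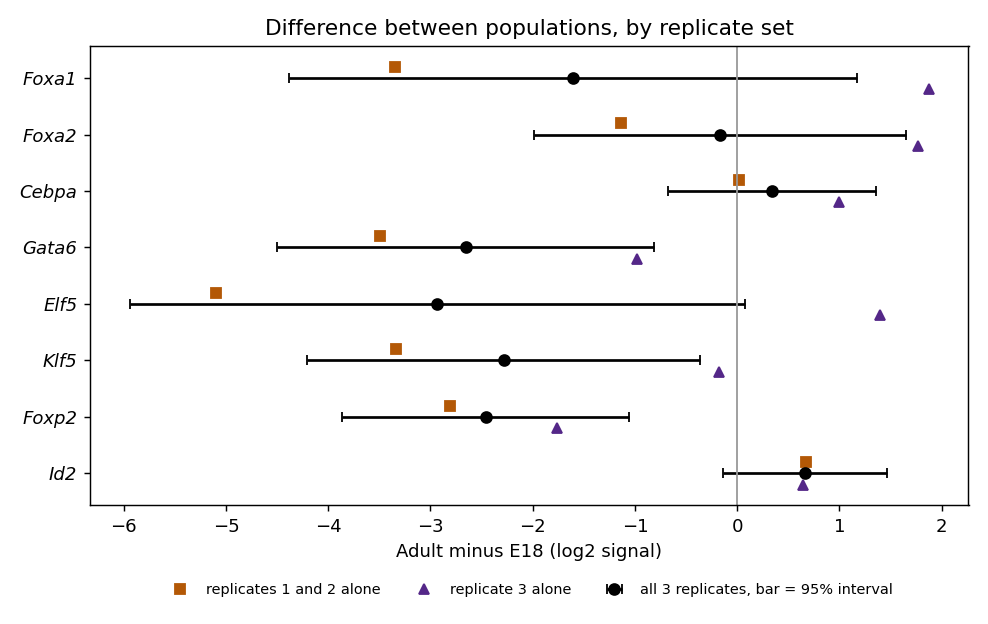
Difference in log2 signal, adult minus E18 (horizontal axis), for the 8 factors tested, from all replicates with its 95% interval (black), from replicates 1 and 2 (squares) and from replicate 3 (triangles). Squares and triangles lie on opposite sides of 0 for Foxa1, Foxa2 and Elf5, while both are negative for Gata6, Klf5 and Foxp2.

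Adult replicate 3 exceeded the mean of adult replicates 1 and 2 by 4.83 for Elf5, 4.78 for Foxa1, 3.23 for Klf5, 3.01 for Foxa2 and 2.93 for Gata6. Over all genes tested the median of this gap was 0.24, and 0.570% of genes had a larger gap than Elf5 and 4.86% a larger one than Gata6. The gap was 1.64 for Foxp2, 0.60 for Id2 and 0.11 for Cebpa. Of the 8 factors 7 were highest among the adult arrays on replicate 3, as were 46.2% of all genes. Over the 20 general epithelial genes the median gap was 3.36.

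Over the genes tested, adult replicate 3 correlated at 0.777 and 0.828 with adult replicates 1 and 2, and at 0.761 to 0.803 with the E18 arrays. Adult replicates 1 and 2 correlated at 0.913. Other cell types also set adult replicate 3 apart. Club cell markers, 8 of 9 tested, had a median gap of 3.74, and their summed signal was 170726 on adult replicate 3, against 41842 and 40414 on adult replicates 1 and 2. Bpifa1, the club list gene that was not tested, stood at 5.09, 3.04 and 11.29 on adult replicates 1, 2 and 3. Ciliated cell markers, 8 of 10 tested, had a median gap of 4.004 and summed to 24487 on adult replicate 3, against 2198 and 5013. The secretory gene Scgb3a1 stood at 14.05 on adult replicate 3, against 8.79 and 7.25. Lymphocyte markers went the other way, with a median gap of -2.32 and sums of 22137, against 103938 and 85890. Mesenchymal markers, 18 of 18 tested, summed to 8669 to 22753 on the adult arrays, against 60914 to 92051 on the E18 arrays. Of 13 endothelial markers 4 fell and 0 rose, with a median of -3.004 and 11 wholly below. Over all genes 4.57% fell, 1.41% rose and 18.8% lay wholly below. The endothelial markers summed to 31717, 32774 and 8295 on E18 replicates 1, 2 and 3, so E18 replicate 3 was also unlike its group here. In bulk samples of this kind, fewer cells of a type and less RNA per cell cannot be told apart, and the part of airway, immune, type I, mesenchymal and endothelial cells in the factor signals was not tested.

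**Figure D4:**
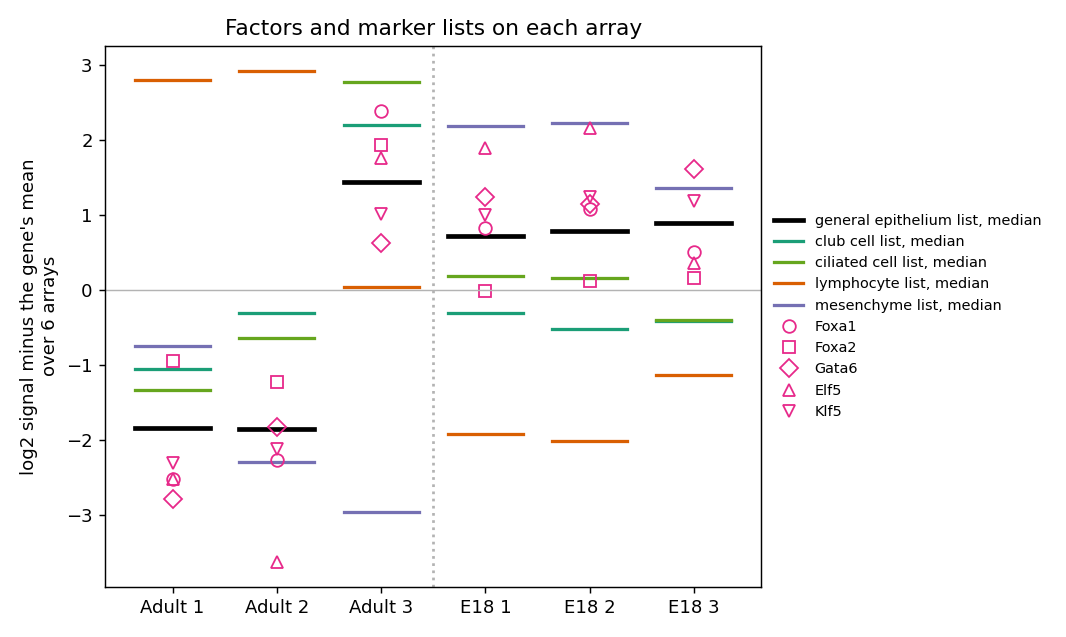
Log2 signal minus each gene's mean over the 6 arrays (vertical axis) for 5 factors (open symbols) and the medians of 5 marker lists (bars), by array. On adult replicates 1 and 2 the factors lie below 0, as does the black epithelial bar, and on adult replicate 3 they lie high with the epithelial, club and ciliated bars while the lymphocyte bar is far lower than on the other adult arrays.

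The factors were therefore also expressed relative to the epithelial genes, by subtracting from each array the median of the 20 epithelial genes after centring each on its mean. On this scale the median of all genes shifted to 1.38, and 0 of the 8 factors passed in either direction. Limma draws each SE towards the spread of all genes, and the SEs of Klf5 and Foxa2 here far exceeded their own SDs. Their p-values on this scale thus do not measure the spread of those factors alone. The adult SD was then 0.87 for Foxa1, 0.21 for Foxa2, 0.53 for Gata6 and 0.10 for Klf5. It was 1.93 for Cebpa and 1.58 for Id2. Adult replicate 3 then exceeded the others by 1.49 for Foxa1 and 1.54 for Elf5, and the gap was -0.27 for Foxa2, -0.35 for Gata6 and -0.06 for Klf5.

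Klf5 relative to the epithelial genes stood at 9.87, 10.07 and 9.91 on the adult arrays, against 10.63, 10.79 and 10.63 on the E18 arrays. All adult values were below all E18 values, with SDs of 0.10 in the adult and 0.09 in the E18 arrays. The difference was -0.73 (SE 1.26, moderated as said above, limma adjusted p = 0.663). Gata6 stood at 8.56, 9.53 and 8.69 on the adult arrays, against 10.03, 9.86 and 10.22 on the E18 arrays, a difference of -1.10 (SE 1.17, adjusted p = 0.512). These 2 of 8 were wholly below on this scale, as were 1.6% of all genes, against 18.8% with the deposited scaling. The centring itself moved the median gene up to 1.38 and so lowers that share. The 1.6% is therefore no measure of how unusual these 2 factors are. Foxa2 stood at 10.13, 9.85 and 9.72 on the adult arrays, against 8.50, 8.56 and 8.50 on the E18 arrays, and its difference of 1.38 (SE 1.13, adjusted p = 0.448) was close to the shift of the median gene. Foxa2 and Id2 were wholly above, as were 12.8% of all genes. Foxa1 differed by -0.06 (adjusted p = 0.972) and its groups overlapped. Foxp2 stood at 9.38, 7.93 and 7.01 on the adult arrays, against 8.69, 9.04 and 9.31 on the E18 arrays. Its groups thus overlapped on this scale, with adult replicate 1 above every E18 array, and differed by -0.91 (adjusted p = 0.543). Elf5 differed by -1.38 (adjusted p = 0.441) and Cebpa by 1.89 (adjusted p = 0.427), with overlap in both.

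**Figure D5:**
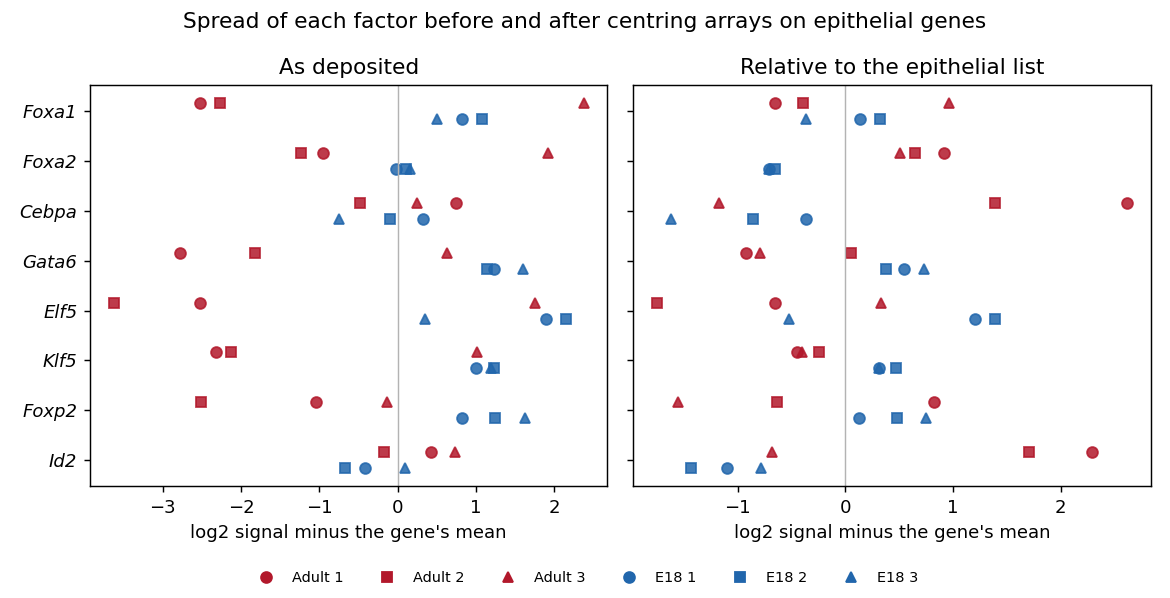
Log2 signal minus each gene's mean (horizontal axes) on adult (red) and E18 (blue) arrays, with the deposited scaling on the left and relative to the epithelial list on the right. The adult symbols of Foxa2, Gata6 and Klf5 draw together on the right, with an adult SD of 0.10 for Klf5, while those of Cebpa and Id2 spread apart.

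The factors were not alike in profile. Gata6 and Klf5 were the closest pair, with a root mean square distance of 0.34 log2 units between profiles centred on their means over the 6 arrays, and Elf5 and Id2 the farthest, at 2.42. Over all genes tested, the profile nearest to that of Foxa1 was Wif1, a secreted Wnt inhibitor, at 0.23, followed by Ptpn13, a phosphatase, at 0.25. For Foxa2 they were Hspb1, a small heat shock protein, at 0.09, and Tmem184a at 0.13. For Klf5 they were Fxyd3, a regulator of the sodium pump, at 0.14, and Epb41l4b at 0.17. Gata6 lay nearest to Spats2l at 0.22 and Myorg at 0.23, and Elf5 to Mecom, a zinc finger transcription factor, at 0.38, and Gdpd2 at 0.49. Mecom stood at 6.90, 5.61 and 10.74 on the adult arrays, against 11.09, 11.10 and 10.44 on the E18 arrays.

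Foxp2 had as its nearest profile Gja1, a gap junction protein, at 0.20, and then the transporter gene Abca5, at 0.22. Gja1 stood at 11.28, 9.48 and 11.83 on the adult arrays, against 13.27, 13.34 and 13.50 on the E18 arrays. It fell by 2.51 on the log2 scale (limma adjusted p = 0.0479), and was the 1 gene among these nearest profiles that passed, though of the fits with 1 array left out it passed only without adult replicate 3 (adjusted p-values of up to 0.172). Cebpa lay nearest to Nudt13 at 0.11 and Pebp1 at 0.14, and Id2 to Gm1123 at 0.08 and Acot11, a thioesterase, at 0.12. These likenesses rest on 6 arrays in 2 groups and are descriptions.

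Of 38 relatives listed from the same protein families, 32 were tested, 0 were lower and 0 higher, with a median difference of -0.13, against -0.17 over all genes. That median was 0.02 with arrays centred on their medians and 1.42 relative to the epithelial list. The brightest were Klf4, at 14.27, 14.04 and 13.81 on the adult arrays, against 13.84, 13.84 and 13.67 on the E18 arrays, and Klf9, with means of 13.72 ± 0.48 in the adult and 13.59 ± 0.13 in the E18 arrays (SD, n = 3). Their differences were 0.25 and 0.13 (limma adjusted p = 0.613 and 0.839). The following 2 genes were chosen after their values were seen. Foxp1, the closest relative of Foxp2 and also expressed in lymphocytes, stood at 14.03, 12.52 and 11.84 on the adult arrays, against 11.34, 11.30 and 10.999 on the E18 arrays, a difference of 1.58 (adjusted p = 0.141). Id4, of the family of Id2, stood at 6.12, 6.80 and 9.98 on the adult arrays, against 9.89, 9.87 and 9.77 on the E18 arrays, a difference of -2.21 (adjusted p = 0.215). Whether relatives and members differ from each other was not tested.

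Of 46 other regulators described in lung epithelium, 41 were tested, 6 fell and 0 rose, where 4.57% of all genes fell and 1.41% rose. Their median was -0.76, against -0.17 over all genes. Mycn, a growth-promoting factor of fetal distal epithelium, was under the floor on all adult arrays and at least 11.5-fold lower (9.28 ± 0.10 in the E18 arrays, SD, n = 3, limma adjusted p = 0.00868). Tbx2, a T-box factor prominent in lung mesenchyme, fell by 4.85 on the log2 scale (adjusted p = 0.028), and Sox11 fell by 3.40 (adjusted p = 0.0166). Both were under the floor on adult replicate 3, and with that value set to the floor they differed by -4.15 and -3.19 (adjusted p = 0.00997 and 0.0123). The nuclear factor I genes Nfib and Nfia fell by 3.28 (adjusted p = 0.0335) and 2.22 (adjusted p = 0.0427). Wwtr1, which encodes the Hippo pathway coactivator TAZ, fell by 3.11, at 8.50, 8.70 and 9.78 on the adult arrays, against 11.88, 12.01 and 12.41 on the E18 arrays (adjusted p = 0.00917). Mesenchymal markers were lower in the same adult arrays, as given above, and their part in these 6 decreases was not tested. Relative to the epithelial list 0 of the 41 passed and their median was 0.79, against 1.38 for all genes. With E18 replicate 1 or 2 left out none of the 6 passed, with adjusted p-values of up to 0.0582 for Mycn and 0.0593 for Wwtr1. Sox11 also did not pass without adult replicate 2 (up to 0.102 over these arrays). Tbx2 did not without adult replicate 2 or E18 replicate 3 either (up to 0.132). Nfia and Nfib passed only without adult replicate 3 (up to 0.198 and 0.149 otherwise).

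Of 32 genes described as bound or controlled by these factors in lung epithelium, 30 were tested, 3 fell and 0 rose, where 4.57% of all genes fell and 1.41% rose. Their median was -0.85, against -0.17 over all genes. Cldn18, the tight junction protein of the alveolus and a gene activated by Nkx2-1, stood at 9.13, 8.30 and 9.47 on the adult arrays, against 12.13, 11.96 and 11.77 on the E18 arrays. It fell by 2.99 on the log2 scale with SE 0.37 (limma adjusted p = 0.00857). Scd2, a desaturase of fatty acid synthesis, fell by 2.71 with SE 0.38, at 10.73, 11.14 and 12.13 on the adult arrays, against 14.01, 14.04 and 14.08 on the E18 arrays (adjusted p = 0.0111). Lyz2, used in the adult sort, fell by 2.86 with SE 0.25 (adjusted p = 0.00303) and passed in all 6 fits with 1 array left out. Cldn18 did not pass without E18 replicate 1 or 2 (up to 0.0613), nor Scd2 without either of those or adult replicate 2 (up to 0.0757). In this list 25 of the 30 genes were highest among the adult arrays on replicate 3, against 7 of the 8 factors, and the median gap to the other adult arrays was 1.295. Relative to the epithelial list 0 of the 30 passed, and Lyz2 differed by -1.31 (adjusted p = 0.521).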

How the data were processed

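Per the labels' protocols, total RNA was amplified with a Two-Cycle cDNA kit and made into biotinylated aRNA, and each sample has 1 array. The authors deposited a linear signal intensity for each probe set. The submitters' processing notes name Affymetrix Expression Console and MAS5. Leaving out 2% of values at either end, the array means were 500.003 or 500.004. Values were taken to log2 with no constant added, and arrays were not normalized further. Of 45101 probe sets, 34945 had exactly 1 gene symbol, 932 several and 9160 none here, besides 64 controls. Symbols came from the platform table, and 34741 matched a RefSeq gene ID of GRCm38.p6.

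Each gene was represented by its brightest probe set. It was tested if it reached the array's 40th percentile on at least 3 of 6 arrays. The test was limma 3.58.1 under R 4.3.3 (two-sided, intensity trend) with Benjamini-Hochberg adjustment over 13335 genes, or over all 23674 probe sets tested. SEs and intervals are moderated. Steps were tested on simulated data. The number of arrays limits precision. The factors and lists were chosen with earlier results of these data known. Genes named by rule are the 9 factors and, of each regulator list, up to 6 passing genes per direction or else its 2 brightest genes. The 2 nearest profiles per factor and the sort genes were added to these. Sftpc, Scgb3a1, Bpifa1, Foxp1, Id4 and some general epithelial genes were named as examples from their lists, outside this rule. Alternatives changed scaling, filter, probe set choice, low values, trend, blocks and the arrays used.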

Additional observations from a re-analysis of the deposited data

How the results depend on the processing

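The number of factors lower in the adult arrays was 0, and it was 0 to 6 when 1 array was left out, 6 of them without adult replicate 3. It was 6 in replicates 1 and 2 alone and 2, Gata6 (limma adjusted p = 0.0489) and Foxp2 (adjusted p = 0.0366), with those replicates against the third as a block. Of all genes 16.5% were lower in replicates 1 and 2 alone and 5.21% with the block. The number of factors was 1, Foxp2, with arrays centred on their medians, with probe sets averaged and with 32 added. No factor was called higher under any of the 20 alternatives. Genes lower numbered 610, from 42 to 2069 with 1 array left out, 20 relative to the epithelial list, 394 with the replicate block, 2195 in replicates 1 and 2 alone and 41 with E18 replicates 1 and 2 averaged. Genes higher numbered 188, from 24 to 701 with 1 array left out, 98 with the replicate block, 801 in replicates 1 and 2 alone and 22 with those E18 replicates averaged. Over the genes tested, E18 replicates 1 and 2 correlated at 0.983, against 0.928 and 0.921 with E18 replicate 3. Their small spread also enters the fit of replicates 1 and 2 alone. Whether they are independent samples was not tested.

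The share of calls that were lower was 76.4%, against 8.66% relative to the epithelial list. Same-numbered arrays deviated from their group means with correlations of 0.04, -0.14 and -0.06, and the labels give no pairing. The third replicates did share high poly-A spike-in signal, and the fit with them as a block is given above. Under the replicate block 0 factors passed. Foxa2 changed sign to 0.19 after quantile normalization, to 1.38 relative to the epithelial list, and to 0.26 and 0.41 without adult replicates 1 and 2, with -1.17 as the lowest value when 1 array was left out. Id2 changed sign to -0.11 in its probe set with the largest SD, and Epcam to 0.14 relative to the epithelial list. The cause was not tested. Between the third replicates alone Foxa1, Foxa2 and Elf5 had the opposite sign to all replicates, as given above. The other differences of the 8 factors kept their sign in the alternatives run. Differences with 1 array left out ran from -4.54 to -1.85 for Elf5, from -3.20 to -0.75 for Foxa1, from -3.63 to -1.93 for Gata6 and from -3.01 to -1.82 for Foxp2. Arrays at the detection floor give only bounds, which limits Nkx2-1, Elf5, Tbx2, Sox11 and Mycn.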
